A study of Homo sapiens with 4 samples.

Results

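Ribosomal protein pseudogenes with measurable RNA were examined in human H9 embryonic stem cells. A row of the deposited expression table was selected on its name and its level: the symbol had to be that of a ribosomal protein gene followed by P and a number, and the mean over the 4 libraries had to be at least 1 TPM, a share of all transcripts that is corrected for transcript length. Of 60671 rows, 1228 had such a name and 40 of these reached the level. The pattern also takes in RPLP0, RPLP1 and RPLP2, which are coding genes of the ribosomal stalk and not pseudogenes, so 37 of the 40 carry the name of a pseudogene. RPSAP58 is one of the 37, yet RefSeq lists that name as a synonym of RPSA2, a protein-coding gene, and its identifier was not found in the GENCODE annotation used for sequences. Because the level chose the rows, their levels are given as a description, with no test.

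The RNA came from the established human embryonic stem line H9, grown without treatment in mTeSR medium, with 2 libraries in each of 2 groups. The control group is labelled only as control. The study's text calls the comparison cells of this experiment mock control cells, and the labels do not say whether they were unedited or carried an empty vector. The second group is labelled CFIm25 KO+ 3Flag-CFIm25 overexpression and is called KO+OE here. CFIm25, encoded by NUDT21, is a subunit of the cleavage factor that helps to choose where an mRNA is cut and polyadenylated. Per the study's methods and results, the edited cells were clones that kept a shortened CFIm25 at a low level, and the tagged protein was put back into 1 such clone with a lentivirus. The series thus sets re-expressing cells beside control cells, and edited cells without re-expression were not analysed here. Nothing in the labels says whether the 2 libraries of a group came from separate cultures, so p-values measure only the spread between these libraries. NUDT21 RNA itself ranged from 152 to 162 TPM over the 4 libraries, and its level cannot tell whether the labels are right. All 8 pluripotency markers examined, POU5F1 and NANOG among them, were at 1 TPM or more in every library, and 9 of 10 markers of differentiated lineages were under 1 TPM in every library, the exception being GATA6 at up to 8.39 TPM.

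Cytosolic ribosomes are built from ribosomal RNA and a set of ribosomal proteins, whose mRNAs are short and among the most abundant in a dividing cell. Such mRNAs have often been copied back into the genome by reverse transcription, which leaves intronless copies, called processed pseudogenes, on many chromosomes. A recent copy can be nearly identical to its parent mRNA, so that a sequencing read from one can match the other. The rows of the table are genes, and how reads matching several places were counted is not given in the sources used here. The level of each pseudogene below is therefore uncertain, since reads of the parent could have been assigned to it, and the part that such reads play was not tested.

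The sequences below show how close the most abundant pseudogenes are to their parents, apart from RPS2P5. That copy, with 11 differing bases, is not shown. They run 5′ to 3′ in transcript orientation, were taken from GENCODE release 44 transcripts by gene identifier, and cover only bases that align with the parent's coding sequence. Capitals mark bases that differ from the parent. RPS28P7, whose parent encodes a protein of the small subunit, matches all 210 coding bases of RPS28. RPS28P4, on chromosome 2 from 231256065 to 231256448 (plus strand), differs at 1 base (T66C, the parent's base first, positions counted from 1 at the start codon).
RPS28P7: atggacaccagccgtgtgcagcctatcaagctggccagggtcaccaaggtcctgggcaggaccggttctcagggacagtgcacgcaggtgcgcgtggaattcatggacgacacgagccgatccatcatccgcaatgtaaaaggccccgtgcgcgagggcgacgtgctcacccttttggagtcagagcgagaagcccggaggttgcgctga
RPS28P4: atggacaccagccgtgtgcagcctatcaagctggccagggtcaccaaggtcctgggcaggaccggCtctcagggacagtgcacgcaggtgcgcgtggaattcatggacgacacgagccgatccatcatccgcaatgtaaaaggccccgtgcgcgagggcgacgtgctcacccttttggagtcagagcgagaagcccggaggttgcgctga
RPL39P3 matches all 156 coding bases of RPL39, which encodes a small protein of the large subunit, while RPL39P15, on chromosome 2 from 70253675 to 70254058 (minus strand), differs at 2 bases (C31T and G40C).
RPL39P3: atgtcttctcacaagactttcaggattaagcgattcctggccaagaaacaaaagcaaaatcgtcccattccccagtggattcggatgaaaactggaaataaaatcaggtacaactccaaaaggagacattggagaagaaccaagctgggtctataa
RPL39P15: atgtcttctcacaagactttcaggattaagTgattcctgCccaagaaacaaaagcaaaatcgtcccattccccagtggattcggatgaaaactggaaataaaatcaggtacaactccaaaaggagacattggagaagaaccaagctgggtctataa
RPL23AP42 differs from RPL23A, another large-subunit gene (chromosome 17, 28719985 to 28724359, plus strand), at 2 of 471 coding bases (G348C and C377T), both of which lie between coding bases 318 and 378.
RPL23AP42: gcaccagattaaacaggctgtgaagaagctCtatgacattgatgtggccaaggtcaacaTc
RPL23A: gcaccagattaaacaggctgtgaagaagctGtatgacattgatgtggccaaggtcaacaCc
RPL21P16 matches all 483 coding bases of RPL21, and RPL21P75, on chromosome 7 from 20002725 to 20003292 (plus strand), differs at 1 base (G397A). Coding bases 367 to 427 are shown for both.
RPL21P16: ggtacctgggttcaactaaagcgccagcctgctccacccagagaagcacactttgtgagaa
RPL21P75: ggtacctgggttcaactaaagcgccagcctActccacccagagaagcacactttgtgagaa
The pairs of pseudogenes shown above differ far more in level than in sequence. RPS28P4 and RPL39P15 were listed at 0 in all 4 libraries and RPL21P75 had a mean of 0.395 TPM, whereas the 4 members shown had means of 408 to 1307 TPM. Positions throughout are RefSeq's on GRCh38.p14, the build that the submitters' processing notes name as hg38, with strands from GENCODE, and these 3 rows under the threshold were chosen after their values were seen.

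Of the 37 pseudogenes, 5 carried most of the RNA. RPS28P7 (chromosome 11, 82689530 to 82689904, plus strand) had 1398 and 1363 TPM in control, against 1233 and 1234 TPM in KO+OE. RPL39P3 (chromosome 6, 73372927 to 73373313, minus strand) had 929.5 and 1092 TPM in control, against 709 and 1162 TPM in KO+OE. RPL23AP42 (chromosome 3, 161429072 to 161429612, minus strand) had 738 and 727 TPM in control, against 749 and 776 TPM in KO+OE. The KO+OE libraries of RPS28P7 lay below both control libraries and those of RPL23AP42 above them, while the KO+OE values of RPL39P3 lay on both sides of its control values. RPS2P5 (chromosome 12, 118246061 to 118247002, plus strand), a copy of the small-subunit gene RPS2, had 520.2 and 497 TPM in control, against 516 and 472 TPM in KO+OE. RPL21P16 (chromosome 10, 120354645 to 120355226, minus strand) had 435 and 403 TPM in control, against 402 and 390 TPM in KO+OE. The control and KO+OE values of RPS2P5 overlapped, and those of RPL21P16 were separated by the small step from 403 to 402 TPM.

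A wide gap followed. The other 32 pseudogenes had means from just above 1 TPM to 56.8 TPM. The highest of them were RPL22P1 (47.7, 59.4, 66.4 and 53.6 TPM, control libraries first), RPL13P12 (19.2, 26.5, 25.2 and 23.8 TPM) and RPL23AP82 (19.4, 19.8, 19.0 and 21.8 TPM). RPS26P19 had 12.9 and 21.3 TPM in control, against 15.8 and 25.3 TPM in KO+OE, so that its replicates differed more from each other than its groups did. Altogether 5 pseudogenes had a mean over 100 TPM, 8 lay between 7.39 and 56.8 TPM and 24 lay under 5 TPM. The median was 3.19 TPM. The 5 highest made up 94.0% to 95.5% of the summed level of the 37 in each library, and the sum was 0.389% to 0.436% of all listed TPM. The stalk genes matched by the name pattern were of another order, with means of 7257 TPM for RPLP0, 2997 TPM for RPLP2 and 1942 TPM for RPLP1.

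**Figure D1:**
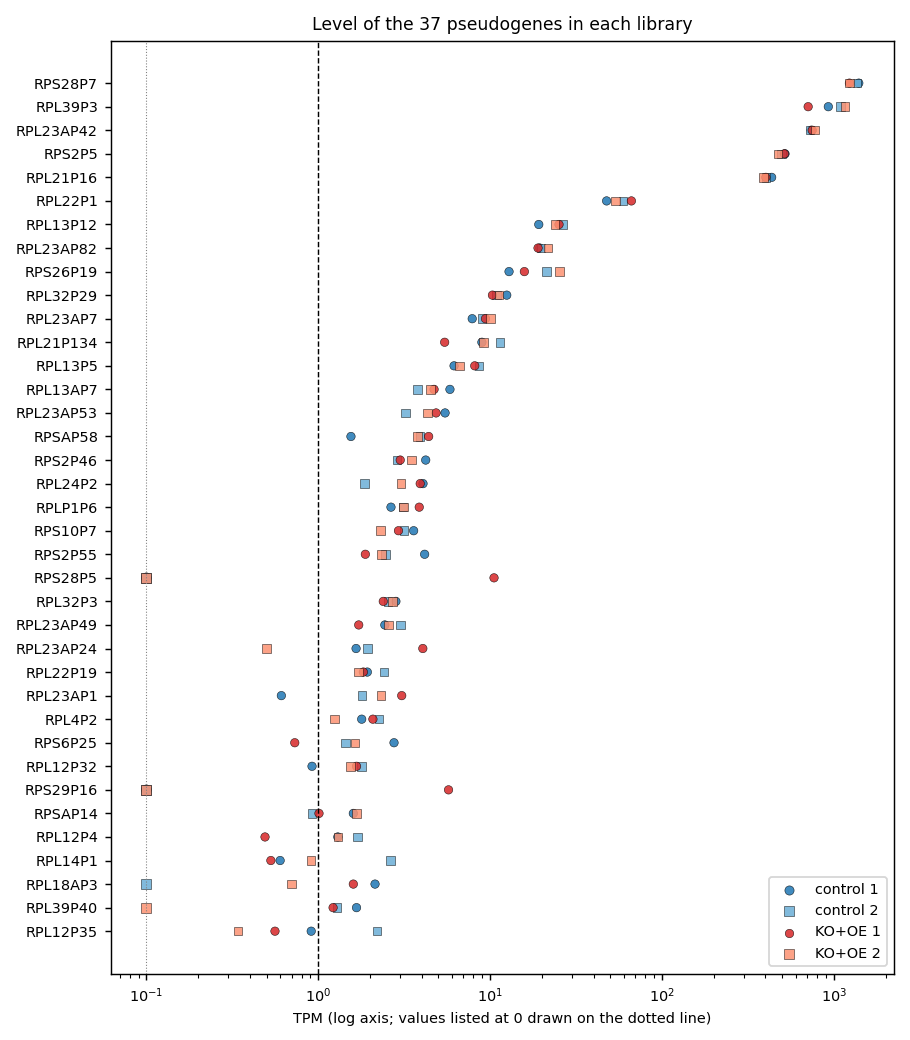
TPM of each of the 37 pseudogenes (rows, by falling mean) in the 2 control libraries (blue) and the 2 KO+OE libraries (red), on a log axis; the dashed line is 1 TPM and values listed at 0 are drawn on the dotted line. The 5 highest rows, at about 390 TPM or more in every library, stand apart from the other 32, and values at 0 occur in 4 rows, all with a mean under 5 TPM.

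Each pseudogene was next set beside its parent, the coding gene of the same symbol. The 37 had 20 parents, with means of 199 to 9199 TPM. Both RPL23AP42 and RPS28P7 were listed above their parents in all 4 libraries. RPL23A had 276 and 271 TPM in control, against 280.4 and 272 TPM in KO+OE, and RPL23AP42 came to 267% to 286% of it. RPS28 had 954 and 896 TPM in control, against 880.3 and 933 TPM in KO+OE, and RPS28P7 came to 132% to 152% of it. No other pseudogene exceeded its parent in all libraries. TPM is corrected for length, so the same number of reads gives a shorter model a higher value. The models of RPL23AP42 and RPS28P7, of 471 and 210 bases, are no longer than the coding sequences of their parents. The lengths used for the correction are not known here, so these percentages need not mean more reads than the parent. RPL21P16 reached 62.9% of RPL21 (640.1 to 660.0 TPM) and RPL39P3 57.2% of RPL39 (1612 to 1771 TPM) by their means. RPS2P5, at 5.45% of RPS2, had the parent with the highest level of all, listed at 8815 to 9515 TPM.

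The remaining pseudogenes were small beside their parents. Of the 32 below the top 5, RPL22P1 came highest, at 28.5% of its parent. The median over all 37 was 0.184%, and 26 of the 37 were under 1%. Within the 37, a higher parent did not go with a higher pseudogene. The Spearman correlation of the mean levels was -0.20, and Pearson's r of log2(TPM + 1) was -0.19. The 37 were chosen by the level that is correlated here, so these correlations say nothing about rows under 1 TPM. These are descriptions across genes that share 20 parents and the same 4 libraries, so no p is given. Among the 13 that averaged 5 TPM or more, the Spearman correlation was 0.01.

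**Figure D2:**
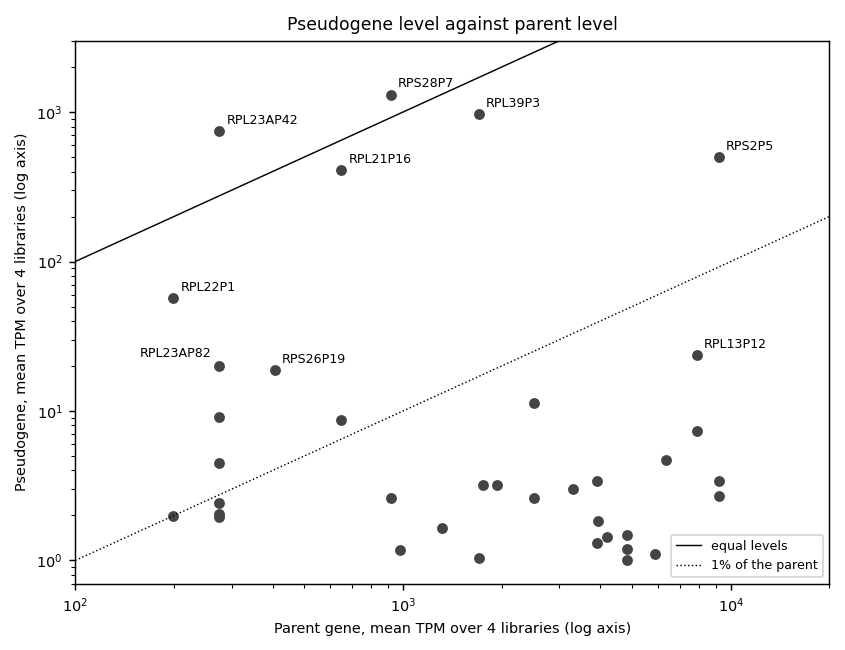
Mean TPM over 4 libraries of each of the 37 pseudogenes (vertical, log axis) against that of its parent gene (horizontal, log axis); the solid line marks equal levels and the dotted line 1% of the parent. RPL23AP42 and RPS28P7 lie above the line of equal levels, and 26 of the 37 lie under the dotted line.

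Several parents had more than 1 expressed copy, and within a family the levels were uneven. RPL23A had 7: RPL23AP42 at a mean of 748 TPM, followed by RPL23AP82 at 20.0, RPL23AP7 at 9.08, RPL23AP53 at 4.46, RPL23AP49 at 2.43, RPL23AP24 at 2.04 and RPL23AP1 at 1.95 TPM. Together they summed to 286% of RPL23A. RPS2 had 3, with RPS2P46 at 3.40 TPM and RPS2P55 at 2.71 TPM beside RPS2P5 at 501 TPM. RPL12, whose protein lies at the base of the stalk, also had 3, at 1.48, 1.19 and about 1 TPM, which summed to 0.0761% of RPL12. The 2 copies of RPS28 summed to 143% of their parent, those of RPL21 to 64.2%, those of RPL39 to 57.3% and those of RPL22 to 29.5%. In each of these families 1 copy held nearly all of the sum, except in the RPL12 family.

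The level was then compared with the sequence match over all rows that the name pattern found and that had a sequence, 1222 of 1225. For each, the share of the parent's coding bases that the annotated copy matched in a local alignment was computed. Of the 47 rows that matched at least 98%, 10 were members and 12 were listed at 0 in all 4 libraries. Of the 1175 rows under 98%, 26 were members, which is 2.21%, against 21.3% above. All 5 pseudogenes over 100 TPM were among the 47, and the highest row under 98% was RPL22P1. The other 37 of the 47 had means under 1 TPM, with a median of 0.132 TPM, and the highest of them was RPS15P4 at 0.990 TPM. Among these rows a match of 98% or more thus accompanied every mean over 100 TPM, and most such rows were low. The limit of 98% was chosen after the values were seen, so the shares on either side of it test nothing. Over the 36 members with a sequence, the Spearman correlation of level with match was 0.25.

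**Figure D3:**
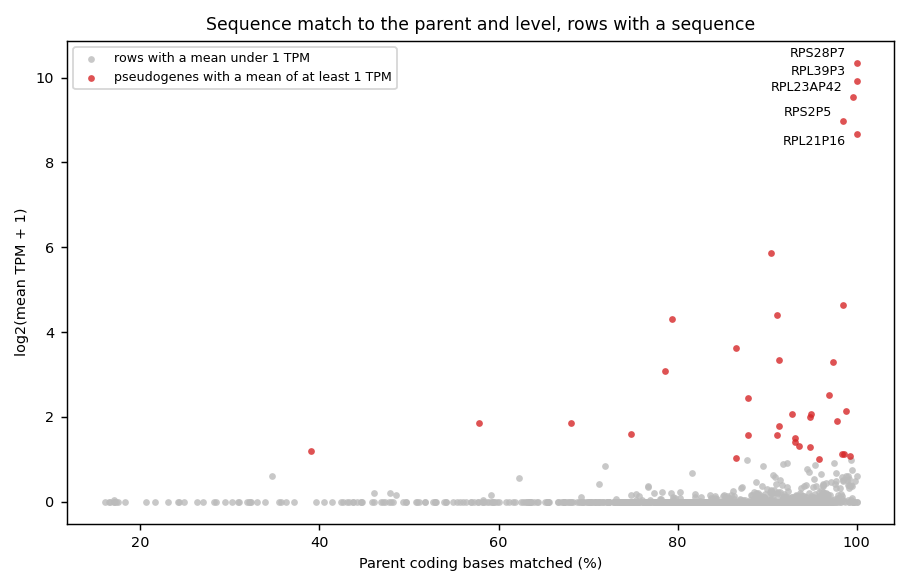
log2(mean TPM + 1) of the 1222 rows with a sequence against the percent of the parent's coding bases matched; red points are the 36 pseudogenes with a mean of at least 1 TPM and grey points the rows below it. The 5 rows over 100 TPM lie at the right edge, above 98%, where most other rows stay near 0.

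A read of the library protocol spans 150 bases from each end of a fragment. Of the 36 members with a sequence, 12 held a run of at least 150 bases identical to the parent, and 21 had no such run of 100 bases. All 5 of the highest were among the 12, with runs of 210 bases in RPS28P7, 156 in RPL39P3, 347 in RPL23AP42, 224 in RPS2P5 and 483 in RPL21P16. Among the rows of at least 98% that stayed under 1 TPM, 27 of 37 held such a run too. The longest identical run in RPS26P19, by contrast, was 17 bases, and in RPL32P29 it was 22 bases.

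The structure and position of the members were described next. The name pattern picks pseudogenes, many of them intronless copies, and these features were not compared with rows under 1 TPM. Of the 36 with a GENCODE model, 35 had a single exon in the 1 transcript used per gene, the exception being RPL32P3 with 2. Their models were 146 to 1282 bases long, with a median of 471 bases. For RPL23AP82, RPL23AP7 and RPL23AP53 the RefSeq span was far longer than the model. RPL23AP82, for instance, had a model of 469 bases and a span from 50757086 to 50799637 on chromosome 22. GENCODE labelled 24 of the 36 processed pseudogenes and 9 transcribed processed pseudogenes. It labelled 2, RPL23AP82 and RPL32P3, transcribed unprocessed pseudogenes and 1 a pseudogene without further type. RefSeq placed 36 of the 37 symbols on 18 chromosomes. In the GENCODE annotation on GRCh37, 12 overlapped an exon of another gene, 12 lay inside an intron, and 12 overlapped no other gene.

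For some members the overlapping gene was itself expressed. RPS26P19 overlapped an exon of POLR2D, a subunit of RNA polymerase II, on the same strand, and POLR2D had a mean of 24.0 TPM against 18.8 TPM for the pseudogene. RPL32P29, at 11.2 TPM, overlapped an exon of RPS29, which had a mean of 4192 TPM. RPLP1P6 (3.19 TPM) lay in an intron of the copper chaperone gene ATOX1 (132 TPM) and RPS6P25 (1.64 TPM) in one of GCDH (53.4 TPM). Whether the counting used strand is not given in the sources used here, and whether reads of these genes entered the members' values was not tested. Around the 5 highest pseudogenes the neighbouring genes were far lower than the pseudogene itself. RPS28P7 lay in an intron of MIR4300HG (0.0700 TPM) on the opposite strand, RPL39P3 in one of OOEP (0.475 TPM), RPS2P5 in one of TAOK3 (9.85 TPM) on the opposite strand, RPL23AP42 overlapped only long noncoding RNA exons on the opposite strand, and RPL21P16 overlapped nothing.

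Values of exactly 0 in part of the libraries were counted next. Of the 37 pseudogenes, 4 were listed at 0 in at least 1 library. RPS28P5 (chromosome 2, 74754670 to 74754819, minus strand) was at 0 in both control libraries, at 10.5 TPM in KO+OE replicate 1 and at 0 in KO+OE replicate 2. RPS29P16 (chromosome 7, 103348571 to 103348852, plus strand), a copy of a small-subunit gene, showed the same arrangement with 5.73 TPM in KO+OE replicate 1. Both therefore passed the level of 1 TPM through that 1 library. RPL18AP3 had 2.14 and 0 TPM in control, against 1.60 and 0.700 TPM in KO+OE. RPL39P40 had 1.67 and 1.29 TPM in control, against 1.22 and 0 TPM in KO+OE. No member was at 0 in both libraries of 1 group and above 0 in both of the other.

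The copies listed in a single library stood further from their parents than the most abundant ones. RPS28P5 covers 71.0% of the RPS28 coding bases, with 6 differences and a longest identical run of 61 bases. RPS29P16 covers all 171 coding bases of RPS29, with 9 differences and a longest run of 62 bases. Both are shown here because they were listed in a single library, with capitals again for bases unlike the parent.
RPS28P5: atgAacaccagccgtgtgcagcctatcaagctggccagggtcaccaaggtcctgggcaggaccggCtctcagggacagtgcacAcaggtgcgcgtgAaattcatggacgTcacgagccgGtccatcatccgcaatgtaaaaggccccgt
RPS29P16: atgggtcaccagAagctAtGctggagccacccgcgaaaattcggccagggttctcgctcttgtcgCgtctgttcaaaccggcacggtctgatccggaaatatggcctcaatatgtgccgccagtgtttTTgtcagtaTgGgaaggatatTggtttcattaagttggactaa
RPL39P40 has 10 differing bases and 7 gap bases against RPL39. The PSMC2 gene, in whose intron RPS29P16 lies, was even between libraries at 8.27 to 8.97 TPM.

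All 4 had means under 5 TPM. In that band, from 1 to 5 TPM, 4 of 24 pseudogenes (16.7%) had a 0 in some library, beside 124 of 4926 genes of any kind (2.52%) and 12 of 3929 protein-coding genes (0.305%). Other genes annotated as pseudogenes had a like share, 42 of 228 (18.4%). The replicates of these pseudogenes also lay further apart than those of all genes. In the same band the median absolute difference between the control replicates was 0.43 on the log2(TPM + 1) scale for the pseudogenes and 0.19 for all genes. Between the KO+OE replicates it was 0.29 and 0.18. Other genes annotated as pseudogenes were also spread more widely than all genes, with medians of 0.28 in control and 0.26 in KO+OE. From 5 to 100 TPM the medians in control were 0.32 for the 8 pseudogenes and 0.09 for all genes. Among the 5 highest, RPL39P3 varied most, with an SD of 319.9 TPM in KO+OE and 115 TPM in control, while its parent RPL39 had SDs of 112 and 74.8 TPM. Depth cannot be read from TPM, so a listed 0 is not an upper limit on the RNA present. At equal TPM a shorter transcript yields fewer reads. The models of RPS28P5, RPS29P16, RPL39P40 and RPL18AP3 were 150, 171, 146 and 528 bases long. Genes of a band were not matched for length, and its part in the zeros and the spread was not tested.

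The level of 1 TPM divides rows of nearly equal value. Just above it lay RPL12P35 (libraries from 0.340 to 2.20), RPL39P40 (1.04 TPM) and RPL18AP3 (1.11 TPM). Just below lay RPS15P4 (0.990 TPM), RPS20P22 (0.985 TPM), and RPS15AP1 and RPL22P11, both at 0.885 TPM. Of the 248 pseudogene rows above 0 and under 1 TPM, 214 were listed at 0 in at least 1 library.

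The KO+OE libraries were then compared with the control libraries by limma, fitted to log2(TPM + 1) of the 12319 genes that reached a mean of 1 TPM. After Benjamini-Hochberg adjustment over all of them, 0 of the 40 members passed an adjusted p of 0.05, where 0.00812% of all genes did, and the smallest adjusted p of a member was 0.627. At an unadjusted p of 0.05, 1 of 40 passed (background 5.33%), 0 of them higher in KO+OE (background 2.26%) and 1 lower (background 3.06%). With more than a 2-fold difference as well, 0 of 40 passed (background 0.43%). The median log2 fold change was -0.03 over the members and -0.01 over all genes, with 17 members above 0 and 23 below. When a library was left out, the median over the members ran from -0.08 to -0.01. Both KO+OE libraries lay above both control libraries in 4 members (background 14.5%) and below them in 7 (background 19.6%), so neither count exceeded its background share.

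The 1 member was RPS28P7. It averaged 1380 ± 24.8 TPM (SD, n = 2) in the control libraries, against 1234 ± 0.559 TPM (SD, n = 2) under KO+OE. This is a log2 fold change of -0.16 (95% interval -0.23 to -0.10). By limma the unadjusted p = 0.00127 and the adjusted p = 0.627, so the difference did not pass the adjustment. Its parent RPS28, identical over the coding bases, had a log2 fold change of -0.03 with an interval of -0.15 to 0.09. The difference between these log2 fold changes was not tested. With a prior that does not depend on the mean level, the unadjusted p of RPS28P7 was 0.0685.

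For the other 4 abundant pseudogenes the interval of the difference took in 0. The log2 fold change was -0.15 for RPL39P3 (interval -0.76 to 0.46), 0.06 for RPL23AP42 (-0.02 to 0.13), -0.04 for RPS2P5 (-0.18 to 0.09) and -0.08 for RPL21P16 (-0.20 to 0.04). Without KO+OE replicate 1 the value for RPL39P3 turned to 0.21, and without KO+OE replicate 2 that for RPS2P5 turned to 0.02. Leaving out control replicate 1 gave -0.03 for RPL21P16, and leaving out control replicate 2 gave -0.14. Next by unadjusted p came RPL23AP1 with a log2 fold change of 0.79 (0.610 and 1.80 TPM in control, against 3.06 and 2.32 TPM in KO+OE, unadjusted p = 0.0507 by limma) and RPL12P35 with -0.77 (unadjusted p = 0.0527 by limma). RPL23AP1 overlaps exons of HLA-F-AS1 and HLA-F, whose log2 fold changes were -0.13 and -0.14. The values of both members rested on the control libraries: without control replicate 1 they were 0.39 for RPL23AP1 and -1.15 for RPL12P35, and without control replicate 2 they were 1.19 and -0.40.

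Precision set what could be seen. The 95% interval lay within a 2-fold difference in either direction for 22 of the 37 pseudogenes, beside 92.6% of all genes tested. It was widest for RPS28P5, with a log2 fold change of 1.76 (-1.14 to 4.67), and RPS29P16, with 1.38 (-0.91 to 3.67). Both values came from KO+OE replicate 1 alone, and without it both log2 fold changes were 0.

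**Figure D4:**
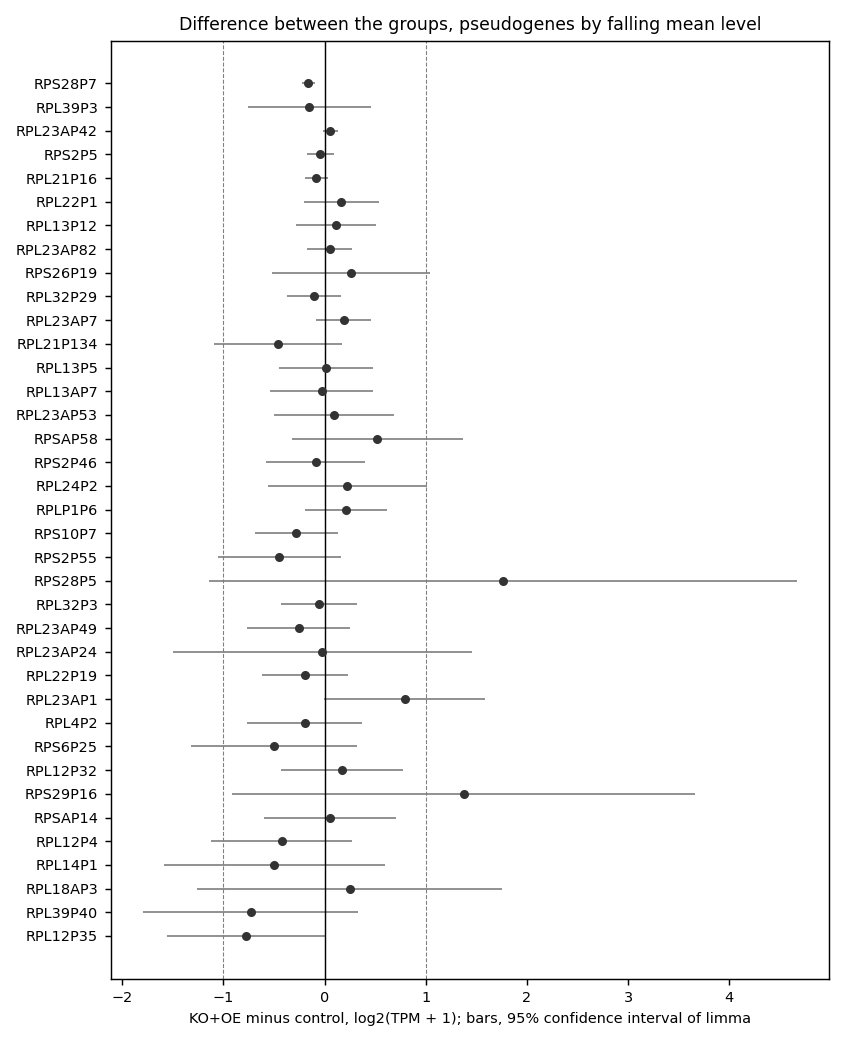
log2 fold change on the log2(TPM + 1) scale, KO+OE minus control, for the 37 pseudogenes by falling mean level; bars are limma's 95% confidence intervals and dashed lines mark a 2-fold difference. Intervals are narrow for most of the abundant rows at the top and wide below; RPS28P7 is the 1 row whose interval of -0.23 to -0.10 leaves out 0.

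The summed level of the 37 pseudogenes was 4255 ± 62.5 TPM (SD, n = 2) in control, against 4040.4 ± 285 TPM (SD, n = 2) in KO+OE. By library the sums were 4211 and 4299 TPM in control, against 3839 and 4242 TPM in KO+OE, so the groups overlapped. The difference of -214 TPM became -12.8 TPM without KO+OE replicate 1, the library in which RPL39P3 was lowest, and -416 TPM without KO+OE replicate 2. An exact two-sided permutation test over the 4 libraries gave p = 0.67. The 40 rows together, which are mostly stalk gene RNA, summed to 16538 and 16477 TPM in control, against 16118 and 16244 TPM in KO+OE. The same exact permutation test gave p = 0.33, the smallest that 2 against 2 libraries allow, so it cannot pass 0.05.

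The coding genes gave a frame for these values. Of the 20 parents, 0 passed an adjusted p of 0.05 by limma and 1 passed an unadjusted p of 0.05 (background 5.33%), namely RPS2, with a log2 fold change of -0.07 (interval -0.14 to -0.01, unadjusted p = 0.0364 and adjusted p = 0.928 by limma). The intervals of all 20 parents lay within a 2-fold difference. Over 79 cytosolic ribosomal protein genes, 0 passed the adjusted p by limma. At an unadjusted p of 0.05, 4 were lower in KO+OE (background 3.06%) and 1 was higher (background 2.26%). Among them were FAU, which encodes a ribosomal protein fused to a ubiquitin-like protein, with a log2 fold change of -0.09, RPL36 with -0.08 and RPS23 with 0.06. The median over the 79 was -0.02, and their log2 fold changes ran from -0.16 to 0.06. Of the 79, 58 lay below 0, beside 6710 of 12319 genes tested. Both KO+OE libraries lay below both control libraries in 21 of them (background 19.6%) and above in 6 (background 14.5%). These genes are not replicates, and the lean was not tested.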

How the data were processed

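Poly(A)-selected RNA of 4 H9 libraries was sequenced as 150-base read pairs. The authors deposited 1 table of 60671 genes. Its header names no unit, and the values were read as TPM because each deposited column holds decimals and sums to 986853 to 987078. The submitters' processing notes name HISAT2, featureCounts, Subread, DESeq2 and hg38 without versions, and how multi-mapping reads were treated is not given in the sources used here. Multi-mapping reads bear most on near-identical copies. The table gives no counts, so depth is unknown and no counting error was computed. The table has 0 other columns of library values.

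Groups came from the sample titles. The 12319 genes whose mean reached 1 TPM were compared on log2(TPM + 1) with limma 3.58.1 in R 4.3.3 (group as the only term, mean-dependent prior, two-sided), and p-values were adjusted by Benjamini-Hochberg over all genes tested. On that scale the changes of low genes come out too small. Tested on simulated data of 12319 genes, the fit recovered 99.4% of 4-fold changes. Those changes were placed only in genes of higher level, with a spread taken from genes of like level. The share therefore does not describe the 24 pseudogenes with a mean under 5 TPM. Each annotated copy was aligned locally with the coding sequence of its parent (GENCODE 44 transcripts, Biopython 1.88). Positions and symbols came from RefSeq on GRCh38.p14. Members and lists were chosen with earlier results of these data known. Genes were named by rule: the 12 highest members, members with an unadjusted p under 0.05, members at 0 in 1 library or in 1 group, rows next to the threshold, coding rows, parents of named members, and up to 5 ribosomal protein genes with an unadjusted p under 0.05. The members named to describe families, overlaps and the smallest p-values beyond this rule were chosen after their values were seen. Some named items are not reported here. The alternatives were a pseudocount of 0.1 or 5, a filter at 5 TPM or none, median-ratio rescaling, quantile normalization, a constant prior, blocking on the replicate number, and dropping 1 library at a time.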

Additional observations from a re-analysis of the deposited data

How the results depend on the processing

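No member or parent passed an adjusted p of 0.05 under any of the 12 alternatives to the limma fit. The count of members that differed more than 2-fold at an unadjusted p of 0.05 went from 0 to 1 with no filter. In that fit 288 rows with a value above 0 entered. The count also rose when a library was left out, a fit that assumes the lone library varies like the other group. The share of all genes that passed this call in these fits is not given here. The changes in the count are therefore no result about the members. Across genes, same-numbered libraries did not deviate together (correlation -0.05), which cannot show whether the replicate numbers mark a shared preparation. With the replicate number as a block, 4 members passed an unadjusted p of 0.05 in place of 1 (5.46% of all genes did in that fit). In that fit 0 passed an adjusted p. That count of 1 was 3 to 7 when a library was left out (4.5% to 5.15% of all genes), 28 of 288 with no filter (4.88%), 0 with a constant prior, 2 after median-ratio rescaling, quantile normalization or with a pseudocount of 5, and 1 with a pseudocount of 0.1 or a filter at 5 TPM. Members listed at 0 in some library numbered 0 at a filter of 5 TPM and 218 with no filter, in place of 4. The Spearman correlation of member with parent level, -0.20, was 0.0083 at a filter of 5 TPM and -0.31 with the members of each parent summed, and ran from -0.24 to -0.15 when a library was left out. The summed level of the 40 rows, KO+OE minus control, was -326 TPM, -180.0 TPM after rescaling by median ratios and -216 TPM without the rows annotated as coding, and ran from -389 to -264 TPM when a library was left out. Of 198 log2 fold changes of single named genes under an alternative, 11 changed sign and 10 of these came from leaving out a library, while 2 went to 0 in the same way; the exception was RPL39 under quantile normalization, at 0.013. When a library was left out, log2 fold changes ran from -0.58 to 1.07 for RPL18AP3, -0.012 to 0.034 for RPL23A, -0.084 to 0.052 for RPL39, -0.51 to 0.21 for RPL39P3, -0.074 to 0.017 for RPS28, 0.00 to 3.53 for RPS28P5, 0.00 to 2.75 for RPS29P16, 0.39 to 1.19 for RPL23AP1, -1.15 to -0.40 for RPL12P35, -0.14 to -0.026 for RPL21P16 and -0.11 to 0.021 for RPS2P5. With a pseudocount of 0.1 the values of RPL23AP1 and RPL12P35 were 1.25 and -1.50. The causes were not tested. Depth is unknown, and the precision comes from 2 libraries per group.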

Other observations

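The name pattern leaves out pseudogenes that the table lists under clone names. A further 19 rows with a mean of at least 1 TPM were described in the table as ribosomal protein pseudogenes, and these were chosen after their values were seen. The highest were AC243919.1, described as a copy of RPL9, at 1399 to 1532 TPM, AC004057.1, a copy of RPS26, at 869 to 969 TPM, and AC116533.1, a copy of RPL36A, at 434 to 474 TPM. AC004057.1 thus stood above RPS26 itself, which was at 388 to 428 TPM. AC116533.1 likewise stood above RPL36A, which was at 123 to 149 TPM, whereas AC243919.1 stood below RPL9, at 2110 to 2240 TPM. As above, such a ranking in TPM depends on the lengths used and need not hold for reads. A step down followed here too, to AL078595.1, a copy of RPL7A, at 33.4 to 57.8 TPM. Of the 19, 7 were listed at 0 in at least 1 library, among them AL136380.1, a copy of RPS2, at 8.32 TPM in control replicate 2 and at 0 in the other libraries, and AL161787.1, a copy of RPS29, at 5.24 TPM in KO+OE replicate 2 and at 0 in the others. AC125388.1, described as a copy of RPL39, had 8.63 and 8.22 TPM in KO+OE, against a listed 0 in each control library. It is the 1 gene tested that passed an adjusted p of 0.05 by limma, and it reached the filter of 1 TPM only through the KO+OE libraries, where it is high.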
